A study of Macaca fascicularis with 11 samples.

Results

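The pluripotent epiblast is the tissue of the implanting embryo from which the body is later built, and in primates it also gives rise to the amnion. Its cells keep the transcription factors POU5F1 and NANOG while they pass from a naive state, close to that of the blastocyst, to a primed state, in which they can answer the signals of gastrulation. Cells that leave for mesoderm or amnion switch on genes such as MIXL1, MESP1, CDX2 and ISL1. The cells described here are those of wild-type embryos that carried the epiblast program and had none of these 4 exit genes.

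They came from 12 wild-type cynomolgus (Macaca fascicularis) embryos without any genetic modification. Blastocysts frozen 5 to 7 days after fertilization were thawed, freed of the zona pellucida and grown in a dish in serum-containing and then serum-replacement medium, with estradiol and progesterone, to Day 10, Day 12 or Day 14. Each day was sampled in 2 droplet libraries, replicate 1 from the batch labelled B1 and replicate 2 from B2. A library pooled all cells of 1 to 3 whole embryos, so cells cannot be traced to an embryo, and no maternal tissue was present. A count is a unique molecular identifier (UMI) and stands for a captured transcript.

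Members were chosen by their own measured expression. A cell was taken when its mean log-scaled level of POU5F1, IFITM1, L1TD1, DPPA4 and DNMT3B exceeded its mean level of 7 trophoblast, 7 mesenchyme and 6 endoderm genes, when NANOG or UTF1 had a UMI, and when MIXL1, MESP1, ISL1 and CDX2 had none. Of 7194 wild-type cells, among 33330 in the series, 1368 had the epiblast score highest and 385 were members. At the edge of the rule, 375 members had UMIs of both NANOG and UTF1, 8 had UTF1 alone, 2 had NANOG alone, and 3 held a single UMI over both genes. Just outside it, 142 cells with NANOG or UTF1 were left out for exactly 1 UMI over the exit genes. CDX2 was the sole reason for 126 of the cells left out, MIXL1 for 92, ISL1 for 34 and MESP1 for 20.

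Day 10 held 80 and 82 members, Day 12 held 2 and 39, and Day 14 held 170 and 12, in the order replicate 1 and replicate 2. They made up 36.5% of the epiblast-score cells in Day 10 replicate 1 (95% exact binomial interval 30.1% to 43.3%) and 26.9% in replicate 2 (22.0% to 32.2%). On Day 12 the share was 13.3% in replicate 1 (1.66% to 40.5%), where it rests on 15 cells, and 24.8% in replicate 2 (18.3% to 32.4%). On Day 14 it was 30.4% in replicate 1 (26.6% to 34.4%) and 10.6% in replicate 2 (5.61% to 17.8%). The rule needs zeros, and zeros depend on depth. The median member held 51436 and 84629 UMIs in the Day 10 libraries, 113264 and 36185 UMIs in those of Day 12, and 45584 and 27013 UMIs in those of Day 14. With every cell thinned to 10000 UMIs the shares were 50.5% and 54.3%, then 100% (14 of 14 cells) and 34.0%, then 40.0% and 15%. The 4 later libraries averaged 11.9 percentage points below the 2 Day 10 libraries (exact permutation test, two-sided, p = 0.2, smallest possible p 0.0667), and 5.13 points below them after thinning (exact p = 0.933). With 6 libraries this test could not pass a 5% level whatever the shares, so it cannot decide whether the share of members changed with day. The thinned mean includes the 100% of Day 12 replicate 1, where 12 of 15 epiblast-score cells held an exit-gene UMI at full depth. The 2 libraries of Day 14 lay further apart than their counting intervals. Intervals cover counting error only.

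**Figure D1:**
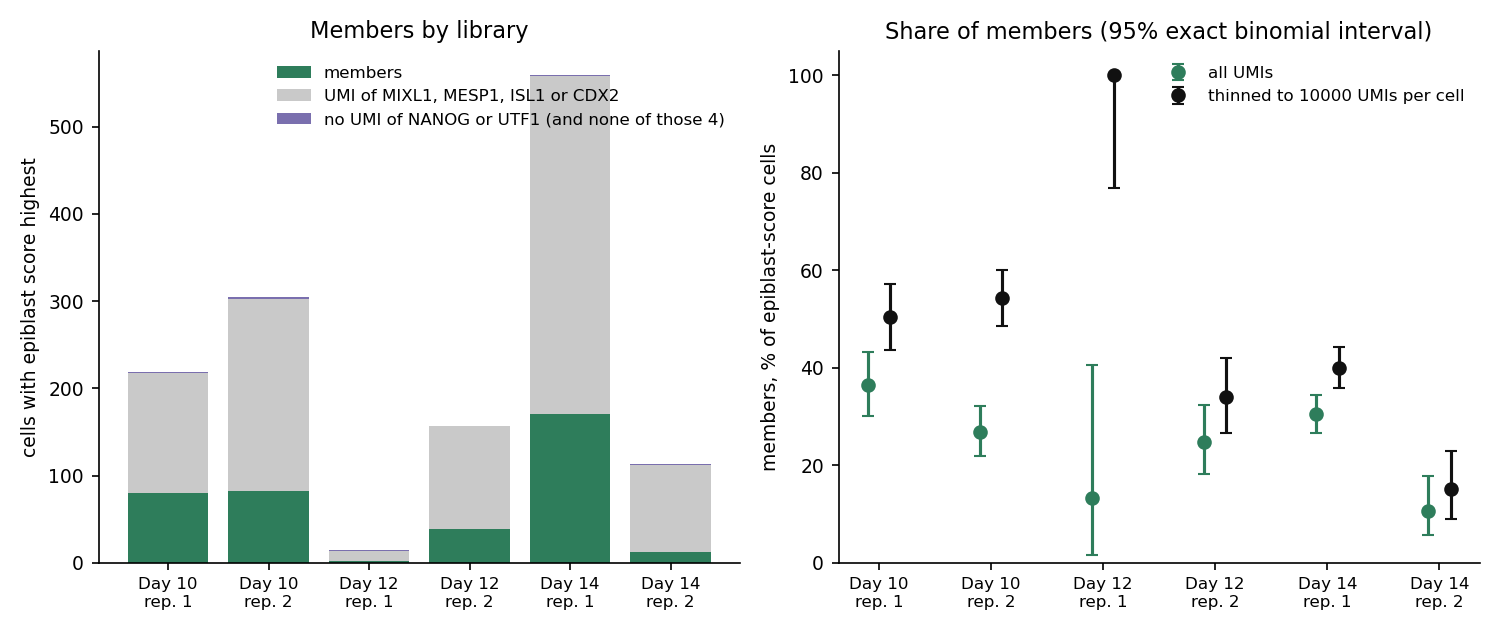
Left, number of cells with the epiblast score highest in each library, split into members, cells with a UMI of an exit gene, and cells that lacked NANOG and UTF1 only. Right, members as a percentage of these cells with 95% exact binomial intervals, from all UMIs (green) and with every cell thinned to 10000 UMIs (black); Day 12 replicate 1 moved from 13.3% to 100% on thinning, and Day 14 replicate 2 was lowest in both.

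The label fits the markers that define epiblast. POU5F1, the core factor of pluripotency, had between 1302 and 1647 CPM (UMIs of the gene per 1000000 UMIs of the members) in the 6 libraries, L1TD1, an RNA-binding protein of pluripotent cells, between 366 and 979 CPM, and DPPA4, a chromatin protein of the same cells, between 525 and 1451 CPM. In the trophoblast-score cells of the same libraries POU5F1 had between 0.213 and 9.32 CPM. The rule read these genes, so the values describe the members and are no test. Outside the rule, all 11 epiblast markers with an identifier had UMIs in the 5 libraries with more than 2 members, among them LIN28A, an RNA-binding protein that blocks let-7, and TERF1, a telomere protein. Detection alone does not tell lineages apart. DPPA2 had 1 UMI in Day 14 replicate 2, and GATA2 and GATA3 of the trophoblast list also had UMIs in these 5 libraries. SOX2, SALL4, TDGF1 and PRDM14 have no identifier in the symbol table used and were not analysed here.

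NANOG stood at 398 and 529 CPM at Day 10, 336 and 275 CPM at Day 12, and 186 and 218 CPM at Day 14. UTF1, a chromatin factor of pluripotent cells, stood at 1243 and 1068 CPM at Day 10, 671 and 660 CPM at Day 12, and 380 and 446 CPM at Day 14. For both genes the 2 Day 14 libraries were below the 2 Day 12 libraries and these were below the 2 Day 10 libraries. The rule asked every member for a UMI of NANOG or UTF1 at each day and reads POU5F1, so these levels describe the members and are no test. Day 12 replicate 1 rests on 2 cells, and 1 cell held 71 of 76 UMIs of NANOG and 141 of 152 of UTF1. POU5F1 was also highest at Day 10, with 1647 and 1643 CPM, against 1302 and 1575 CPM at Day 12 and 1310 and 1511 CPM at Day 14.

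Genes of other lineages were present at low levels. The 6 endoderm genes of the rule summed to 5.94 to 30.7 CPM at Day 10 and 0 to 6.44 CPM later, which the selection of the members favours. The 9 endoderm genes outside it summed to 34.1 to 74.4 CPM over the 6 libraries, nearly all of it APOC1, an apolipoprotein gene with 33 to 72.1 CPM, while APOA2 was at 0 in each. The 8 mesenchyme genes outside the rule summed to 101 to 131 CPM at Day 10 and 63.7 to 119 CPM later. Most of this was SPARC, with 23.5 to 86.1 CPM, and PCOLCE, with 23.4 to 44.1 CPM, while LUM, COL6A3 and COL5A2 were at 0 at Day 10. The 16 streak and mesoderm genes outside the rule summed to 149.8 to 278 CPM, with 119 to 209 CPM from FOXH1, which is also on the NODAL and BMP list. Among them MSGN1 was at 0 in all 6 libraries and TBXT, which marks the primitive streak, in 5 of 6, while HAS2 reached 50.3 CPM and CDX1 43.6 CPM in Day 14 replicate 2, where 1 cell held 11 of its 13 UMIs. The 13 amnion genes outside the rule summed to 50.7 to 69.8 CPM in 5 libraries and to 198 CPM in Day 14 replicate 2. IGFBP3, which binds insulin-like growth factors, had 23.5 to 48.6 CPM and GABRP was at 0 in all 6 libraries, and MSX2, a homeobox gene that BMP induces, had 107 CPM in Day 14 replicate 2 and at most 11.2 CPM elsewhere.

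Trophoblast transcripts were low in most libraries and uneven among the members of Day 14 replicate 1. CGA, the alpha chain of choriogonadotropin, the hormone whose level in epiblast cells the authors used to estimate free RNA, had 3.59 to 22.1 CPM in 3 libraries, 0 in Day 12 replicate 1, 33.5 CPM in Day 14 replicate 2 and 247 CPM in Day 14 replicate 1, against 1389 to 11374 CPM in trophoblast-score cells. The rule reads CGA as a trophoblast gene, and the subtraction of free RNA was set from this hormone. Both favour low values in the members, so these levels are no test. CGA had a UMI in 22 of 80 and 21 of 82 members at Day 10 and in 11 of 39 in Day 12 replicate 2. In Day 14 replicate 2 it had a UMI in 6 of 12, and a cell of these 4 libraries held at most 17 UMIs. In Day 14 replicate 1 its 2034 UMIs lay in 16 of 170 members, and 1 cell held 915 of them. In the same library 18 members held the 1510 UMIs of CDKN1C, a growth-restraining imprinted gene, and 1 cell held 702 of these. The 9 trophoblast genes outside the rule summed to 7.88 and 31.6 CPM at Day 10 and to 0 to 84.9 CPM later. Of the 385 members 12 had over 2 times the median UMIs of their library's members, and 5 had an epiblast score less than 1 above the next score. Without those 12, 374 genes were called in the first comparison below, against 354 with them.

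Changes between days were tested over libraries, with UMIs summed over the members of each. Day 12 replicate 1, with 2 members, fell under the limit of 5 cells and stayed out, so that Day 12 rests on 1 library. Fewer transcripts per cell and fewer cells that express a gene cannot be told apart in such sums, and shares of cells are given below for the leading genes. Of 10879 genes tested with edgeR's quasi-likelihood test, 354 (3.25%) passed a false discovery rate of 5% between Day 10 and the mean of Day 12 and Day 14, 132 higher (1.21%) and 222 lower (2.04%) on the later days. With batch as a term beside day 802 genes passed, all 354 among them, 3.35% of the genes tested higher and 4.03% lower, which is the background for the counts given with that term. The batch term leaves fewer residual degrees of freedom than the main fit, so its larger counts are not stronger evidence. Without Day 14 replicate 1, which holds the most members, 48 passed, and without Day 10 replicate 2, 204 passed. The 31 genes that the rule reads were left out of the test. Backgrounds given below beside list counts are shares of all genes tested. The lists hold only genes with a symbol, among which calls were more frequent, so these backgrounds are low for them. A list count above its background is therefore not by itself a result about that list.

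Genes of the naive state and of the maternal-effect group were lower on the later days. Maternal-effect proteins are stored in the oocyte and act in the cleaving embryo. Of 15 such genes tested, 12 fell (background 2.04%), none rose, and their median log2 change was -2.43 against -0.08 for all genes tested. In 14 of the 15 the later libraries lay below both Day 10 libraries (background 15.2%). With batch as a term 13 fell, and without Day 14 replicate 1, 7 fell. ARGFX, KLF4, KLF5, KLF17, TFCP2L1 and ZFP42 of this list have no identifier in the symbol table used. They were not analysed here, so the result covers only part of the naive-state genes listed.

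KHDC1L (ENSMFAG00000034121), a KH-domain gene, fell furthest among those with over 100 CPM. It had 622 and 612 CPM at Day 10, 8.83 and 123 CPM at Day 12 and 5.59 and 3.35 CPM at Day 14 (log2 change -4.63, SE 0.30, adjusted p = 1.79e-06). After thinning, 98.8% and 97.6% of the Day 10 members had a UMI of it, against 63.2% in Day 12 replicate 2 and 8.59% and 8.33% at Day 14. In trophoblast-score cells, which the comparison did not use, it had 245 and 335 CPM at Day 10 and 18.3 to 34.4 CPM later, so that its level was lower on the later days outside the members as well.

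NLRP7 and NLRP2, oocyte-stored members of the NLR family, are neighbours in the RefSeq annotation of T2T-MFA8v1.1, and both fell. NLRP7 (ENSMFAG00000003765) had 417 and 625 CPM at Day 10, 151 CPM in Day 12 replicate 2 and 16 and 33.5 CPM at Day 14 (log2 change -3.30, SE 0.31, adjusted p = 3.65e-05). NLRP2 had 948 and 905 CPM, 432 CPM, and 101 and 178 CPM in the same order (log2 change -2.02, SE 0.28, adjusted p = 0.000960). The later libraries overlapped with Day 10 in neither gene. Trophoblast-score cells had 288 and 499 CPM of NLRP7 at Day 10 and 1.86 to 48.5 CPM later.

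On chromosome 4 of that assembly OOEP, KHDC3L, DPPA5, KHDC1 and KHDC1L follow each other as protein-coding genes, and of the 4 with an identifier OOEP and KHDC1L passed the test. OOEP, a part of the subcortical maternal complex of the egg, had 552 and 499 CPM at Day 10 and still 378 CPM in Day 12 replicate 2, then 39.0 and 46.9 CPM at Day 14 (log2 change -2.13, SE 0.26, adjusted p = 0.000317). KHDC3L, of the same complex, was the most abundant gene of the group, with 16458 and 11197 CPM at Day 10, 9406 CPM in Day 12 replicate 2 and 5732 and 2794 CPM at Day 14. Its log2 change of -1.19 (SE 0.43) did not pass (adjusted p = 0.164; 0.0182 with batch as a term). DPPA5, an RNA-binding protein of pluripotent cells, went from 4551 and 3990 CPM to 3152 CPM and to 3264 and 2462 CPM, a log2 change of -0.57 that did not pass (adjusted p = 0.430). KHDC3L and DPPA5 had at most 58.3 CPM in trophoblast-score cells.

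DNMT3L, the partner of the de novo DNA methyltransferases, had 158 and 219 CPM at Day 10, 56.1 CPM in Day 12 replicate 2 and 13.4 and 23.5 CPM at Day 14 (log2 change -2.73, SE 0.29, adjusted p = 0.000112). DNMT3B, the methyltransferase that the rule reads, had 380 and 582 CPM at Day 10 and 383 and 549 CPM at Day 14. DPRX, a homeobox gene of the early embryo, was seen at 33.9 and 58.1 CPM at Day 10, at 0 in Day 12 replicate 2 and with 19 and 1 UMIs at Day 14 (adjusted p = 1.56e-05). DPP4, a surface peptidase used as a marker of the naive state, had 9.60 and 11.3 CPM at Day 10, none at Day 12 and 0.365 and 6.70 CPM at Day 14, the last from 2 UMIs (adjusted p = 0.00652). The germ cell and naive gene DPPA3 had 52 and 191 UMIs at Day 10 and 10 UMIs later (adjusted p = 0.000856). BRDT, RESF1, SOX15 and DPPA2 also fell, and TRIML2, with 823 CPM in Day 12 replicate 2 and 112 to 420 CPM in the other 4 libraries of the fit, did not pass (adjusted p = 0.859).

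**Figure D2:**
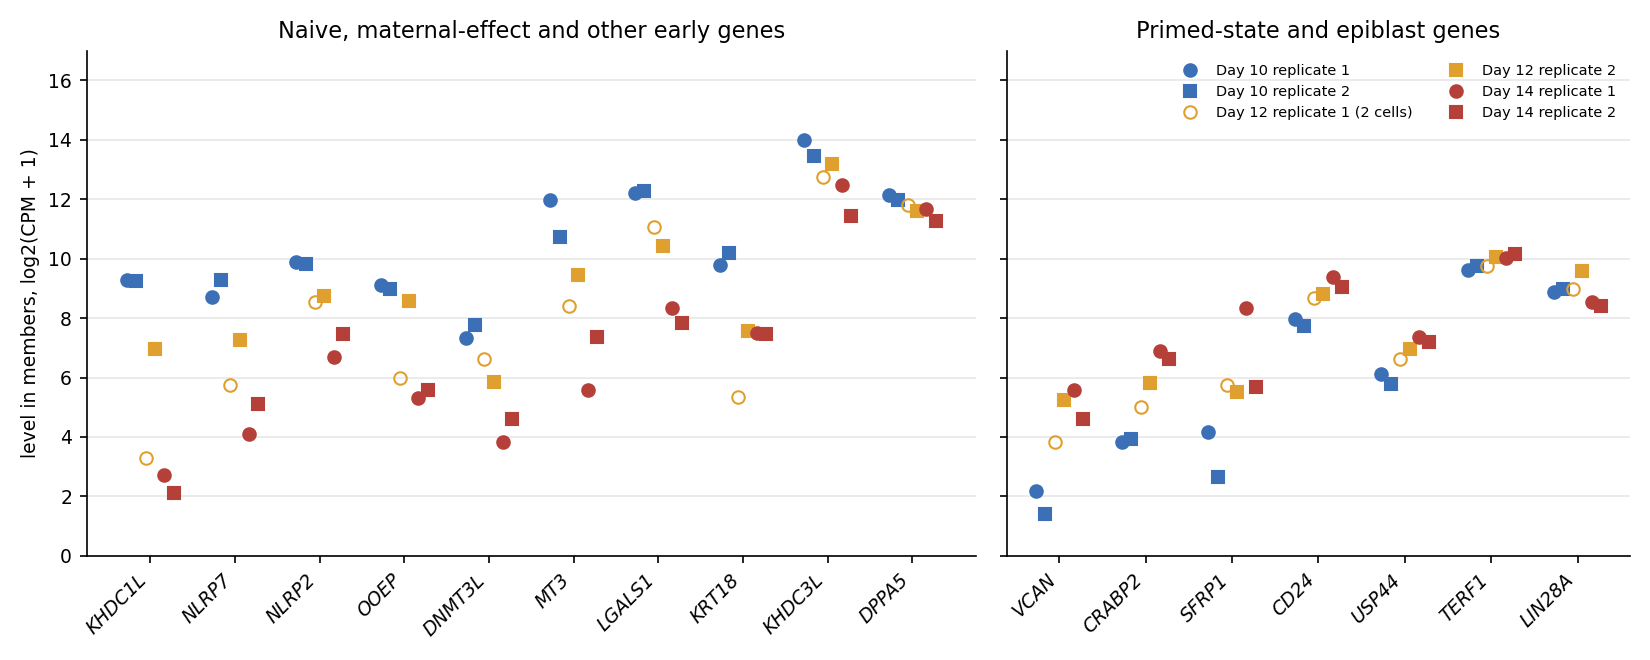
Level in the members as log2(CPM + 1) by gene and library, with circles for replicate 1 and squares for replicate 2, blue for Day 10, yellow for Day 12 and red for Day 14; the open circle is Day 12 replicate 1 with 2 cells. KHDC1L lies at 622 and 612 CPM on Day 10 and near the bottom, with 5.59 and 3.35 CPM, on Day 14, KHDC3L stays the most abundant gene, and VCAN, CRABP2, SFRP1, CD24 and USP44 are lowest at Day 10.

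Genes of the primed state were higher on the later days. Of 11 tested, 6 rose (background 1.21%) and none fell, with a median log2 change of 1.13, and in 8 of the 11 the later libraries lay above Day 10 (background 12.7%). With batch as a term 8 rose. Without Day 14 replicate 1 only 1 of them passed, and without Day 10 replicate 2, 3 did. The study used VCAN, CRABP2, SFRP1, CD24 and USP44 as primed and KHDC1L, NLRP7, OOEP, DNMT3L and DPP4 as naive genes for these cells, so that the direction of these 10 genes is not independent evidence. Without them, 1 of 6 primed genes rose, CDH2 (background 1.21%), and 7 of 10 naive and maternal-effect genes fell (background 2.04%). The lists were chosen with earlier results of these data known, so these counts are not independent evidence either.

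CRABP2, which carries retinoic acid, had 13.1 and 14.1 CPM at Day 10, 30.9 and 55.5 CPM at Day 12 and 119 and 97.2 CPM at Day 14 (log2 change 2.46, SE 0.28, adjusted p = 0.000188). VCAN, the matrix proteoglycan versican, had 3.51 and 1.66 CPM at Day 10, 13.2 and 36.8 CPM at Day 12 and 47.3 and 23.5 CPM at Day 14 (log2 change 3.92, SE 0.43, adjusted p = 0.000145). Both genes were above their Day 10 levels in every later library. SFRP1, a secreted antagonist of WNT, had 16.9 and 5.25 CPM at Day 10, 53.0 and 44.8 CPM at Day 12, 50.3 CPM in Day 14 replicate 2 and 326 CPM in Day 14 replicate 1 (log2 change 3.1, SE 0.64, adjusted p = 0.0155), so the 2 Day 14 libraries were far apart. In the latter 162 of 170 members had a UMI of it.

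CD24, a surface glycoprotein, rose from 252 and 212 CPM at Day 10 to 450 CPM in Day 12 replicate 2 and 674 and 526 CPM at Day 14 (log2 change 1.10, SE 0.27, adjusted p = 0.0400). USP44, a deubiquitinase of pluripotent cells, rose from 67.9 and 54.5 CPM to 125 CPM and to 165 and 144 CPM (log2 change 1.13, SE 0.27, adjusted p = 0.0336). CDH2, the N-cadherin gene, stayed low, with 4 and 0 UMIs at Day 10 and 63 UMIs over the later libraries of the fit (adjusted p = 0.0267). SFRP2, a relative of SFRP1, had 148 and 84.9 CPM at Day 10 and 198 to 286 CPM in the 3 later libraries of the fit, and did not pass (adjusted p = 0.0695; 0.000723 with batch as a term).

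Single members showed the same order. In members thinned to 10000 UMIs, the 5 naive genes of the study summed to 8 to 44 UMIs in every Day 10 cell, with medians of 16 and 19 in the 2 libraries. In Day 12 replicate 2 the sum ranged from 0 to 23 with a median of 6.5, and 2.63% of the cells had none. In the 2 members of Day 12 replicate 1 the sum was 1 and 2, within the range at Day 14. At Day 14 it ranged from 0 to 10 and from 0 to 2, with 50.9% and 33.3% of the cells at 0. The 5 primed genes summed to a median of 3 and 2 UMIs at Day 10, 7 in Day 12 replicate 2, and 13 and 8 at Day 14. At Day 10, 11.3% and 18.3% of the members had no UMI of them, and on the later days each member thinned had at least 1, with 8 members of under 10000 UMIs left out. Cells of a library are not replicates, and no test was made over them.

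**Figure D3:**
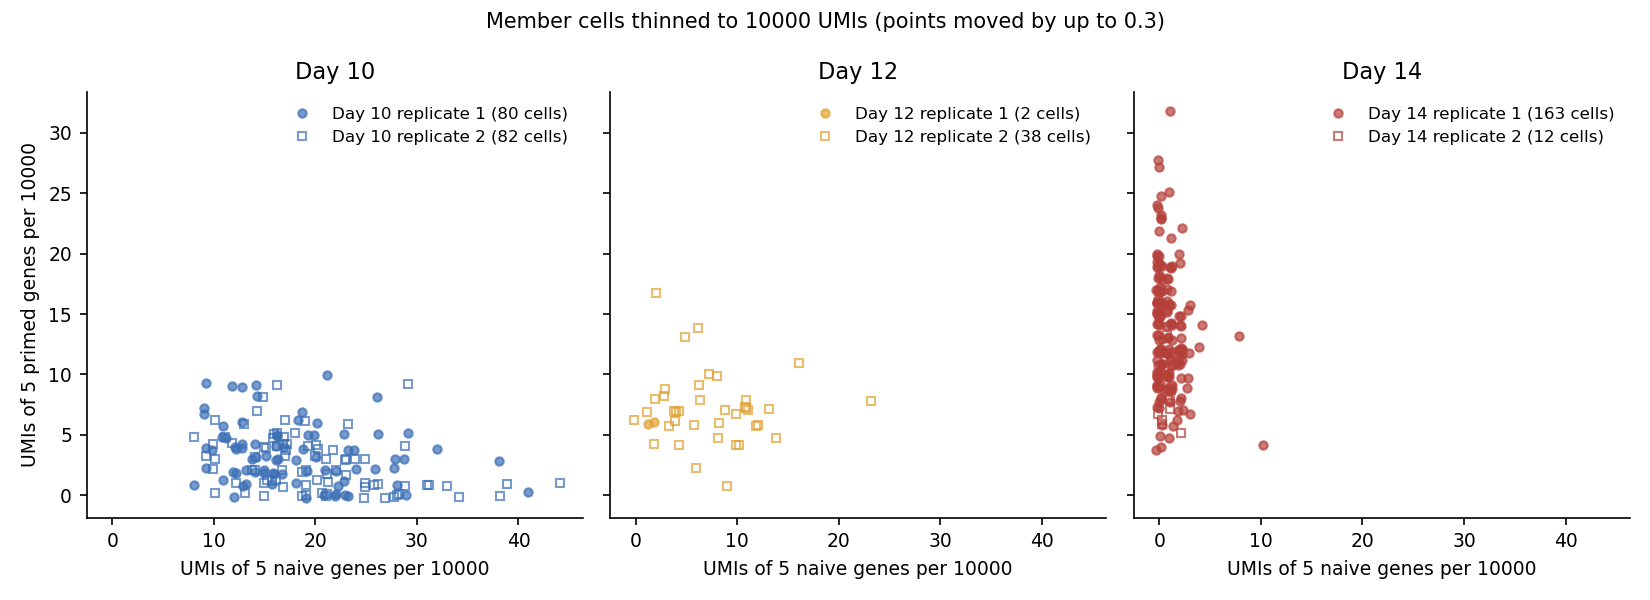
Each point is a member thinned to 10000 UMIs, with UMIs of KHDC1L, NLRP7, OOEP, DNMT3L and DPP4 on the horizontal axis and of VCAN, CRABP2, SFRP1, CD24 and USP44 on the vertical axis, and 1 panel for each day (filled circles, replicate 1; open squares, replicate 2). Day 10 cells lie at 8 to 44 naive UMIs, Day 12 replicate 2 between 0 and 23, and Day 14 cells between 0 and 10.

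Day 12 replicate 1 took no part in the fit and gives a further look at these genes. Thinned to 10000 UMIs, where more cells meet the rule, it had 14 members. At full depth 2 of its 15 epiblast-score cells were members and 12 held an exit-gene UMI. Most of the 14 are therefore cells that the rule leaves out at full depth. Of the 12 naive and maternal-effect genes that fell, 11 were below both Day 10 libraries in these cells, with SOX15 as the exception. Of the 6 primed genes that rose, 5 were above both, with CDH2 as the exception. Among all genes tested 49.1% were below and 31.6% above, among all genes called lower 85.1% were below, and among all called higher 58.3% were above. The calls and these counts share the Day 10 libraries, which favours such directions. KHDC1L had 57.1 CPM in these 14 cells, against 92.3 CPM in Day 12 replicate 2 thinned alike.

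Metallothioneins, small proteins that bind zinc and copper, were lower on the later days as well, with 4 of 5 called (background 2.04%) and a median log2 change of -2.88. Without Day 14 replicate 1, 1 of them passed. MT3 had 4015 and 1697 CPM at Day 10, 336 and 693 CPM at Day 12 and 46.5 and 164 CPM at Day 14 (log2 change -3.60, SE 0.49, adjusted p = 0.000854). MT2A had 65.5 and 94.8 CPM, 8.83 and 17.4 CPM, and 1.34 and 6.70 CPM (log2 change -3.93, SE 0.36, adjusted p = 2.86e-05). MT1M and MT1X also fell. The MT1 genes are near-identical copies, so that their reads may have been split between them.

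Of 18 epithelial and cytoskeletal genes, 5 fell (background 2.04%) and none rose, and with batch as a term 8 fell and 1 rose. Without Day 10 replicate 2, or without Day 14 replicate 1, 3 of them passed. LGALS1, the galectin-1 gene, had 4689 and 4965 CPM at Day 10, 2150 and 1385 CPM at Day 12 and 322 and 228 CPM at Day 14 (log2 change -3.02, SE 0.33, adjusted p = 0.000145). In trophoblast-score cells it had 4.54 to 32.5 CPM, with no such order. The keratin pair of simple epithelia, neighbours on chromosome 11, fell together. KRT18 had 874 and 1168 CPM at Day 10 and 178 to 190 CPM in the 3 later libraries of the fit (log2 change -2.53, SE 0.27, adjusted p = 0.000112). KRT8 had 456 and 570 CPM at Day 10, 83.9 CPM in Day 12 replicate 1 and 124 to 171 CPM in the 3 libraries of the fit (log2 change -1.93, SE 0.27, adjusted p = 0.000960). The other epiblast-score cells, with 4134 and 4944 CPM of KRT18 at Day 10 and 264 to 1219 CPM later, had more of it than the members in every library. ANXA2 and ANXA5, which bind membranes in the presence of calcium, fell as well.

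Of the germ cell genes, 3 of 5 tested fell (background 2.04%), DPPA3, SOX15 and TFAP2C, and without Day 14 replicate 1 none of them passed, by edgeR. TFAP2C, a factor of germ cells and trophoblast, had 35.8 and 39.7 CPM at Day 10 and 6.68 to 11.4 CPM in the 3 later libraries of the fit (log2 change -2.15, SE 0.30, adjusted p = 0.000988). PRDM1, a repressor of primordial germ cells, had at most 1.34 CPM in any library of members, and SOX17, which the rule reads as an endoderm gene, at most 0.243 CPM.

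Of 11 epiblast markers outside the rule, USP44 rose and DPPA2 fell (background 1.21% and 2.04%), and the median was -0.28 against -0.08 for all genes tested. TERF1 had between 795 and 1139 CPM and LIN28A between 338 and 773 CPM. GDF3, a ligand of the NODAL pathway, had 26.5 and 46.0 CPM at Day 10 and 12.5 to 22.7 CPM later and did not pass (adjusted p = 0.0589; 0.00866 with batch as a term). With batch as a term 3 epiblast markers rose and 3 fell.

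In the FGF pathway 1 of 9 genes rose and 1 fell (background 1.21% and 2.04%). SPRY2, SPRY4, FGFR1 and FGFR2 have no identifier in the symbol table used and were not analysed here. DUSP6, a phosphatase that ERK signalling induces, had 15 and 18 UMIs at Day 10 and 107 UMIs in the later libraries of the fit (log2 change 2.05, SE 0.46, adjusted p = 0.0241). FGF13, an intracellular relative of the FGF ligands, fell from 32.3 and 51.6 CPM at Day 10 to 14.7 CPM in Day 12 replicate 2 and 6.81 and 3.35 CPM at Day 14 (log2 change -2.14, SE 0.32, adjusted p = 0.00169). FGF4, the ligand of the epiblast, had 15.8 to 77.1 CPM with no order by day.

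In the WNT pathway 2 of 10 genes rose, SFRP1 and RSPO3 (background 1.21%), and 4 rose with batch as a term (background 3.35%). RSPO3, which strengthens WNT signals, had 3 and 4 UMIs at Day 10 and 78 later (adjusted p = 0.0346). HAS2, a hyaluronan synthase of the streak list, rose from 13.3 and 10.5 CPM to 38.8 CPM and to 32.2 and 50.3 CPM (log2 change 1.62, SE 0.30, adjusted p = 0.00874). RSPO3 and HAS2 were the 2 of 8 streak and mesoderm genes that passed (background 1.21%). No gene passed among 10 of the NODAL and BMP pathway, 10 amnion, 16 cell cycle, 13 mitochondrially encoded, 5 imprinted, 8 trophoblast, 3 mesenchyme and 1 endoderm genes tested. For lack of an identifier NODAL, LEFTY1, LEFTY2, TDGF1, CER1 and BMP2 of the NODAL and BMP list were not analysed. The same holds for AXIN2, LEF1 and DKK1 of the WNT list, so neither count covers its pathway. With batch as a term, 2 NODAL and BMP genes rose and 1 fell, 2 imprinted, 2 trophoblast and 1 cell cycle genes rose and 2 mitochondrial genes fell. The trophoblast genes were LAIR2 and ISM2, and in Day 14 replicate 1 a single cell held 170 of 256 UMIs of LAIR2 and 66 of 148 of ISM2. CDKN1C, with 702 of 1510 UMIs there in a single cell, was 1 of the 2 imprinted genes.

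Of 24 genes of glycolysis and hypoxia, 2 rose and 1 fell (background 1.21% and 2.04%), and 4 rose and 1 fell with batch as a term (background 3.35% and 4.03%). Of these 24 genes 18 were highest in Day 14 replicate 1 among the libraries of the fit (16.9% of all genes tested). SLC2A1, the main glucose transporter, had 56.6 and 40.4 CPM at Day 10 and 93.6 to 152 CPM in the 3 later libraries of the fit (log2 change 1.16, SE 0.29, adjusted p = 0.0400). DDIT4, a stress-induced inhibitor of mTORC1, had 12.4 and 14.4 CPM at Day 10, 8.83 CPM (2 UMIs) and 37.4 CPM at Day 12, and 123 and 26.8 CPM at Day 14 (log2 change 2.05, SE 0.43, adjusted p = 0.0179). NDRG1 fell (adjusted p = 0.0149). Of 11 genes of DNA methylation and chromatin, DNMT3L fell and DEK, a chromatin protein, rose (adjusted p = 0.0367). It had 321 and 280 CPM at Day 10 and 441 to 924 CPM in the 3 later libraries of the fit, but 269 CPM in Day 12 replicate 1.

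**Figure D4:**
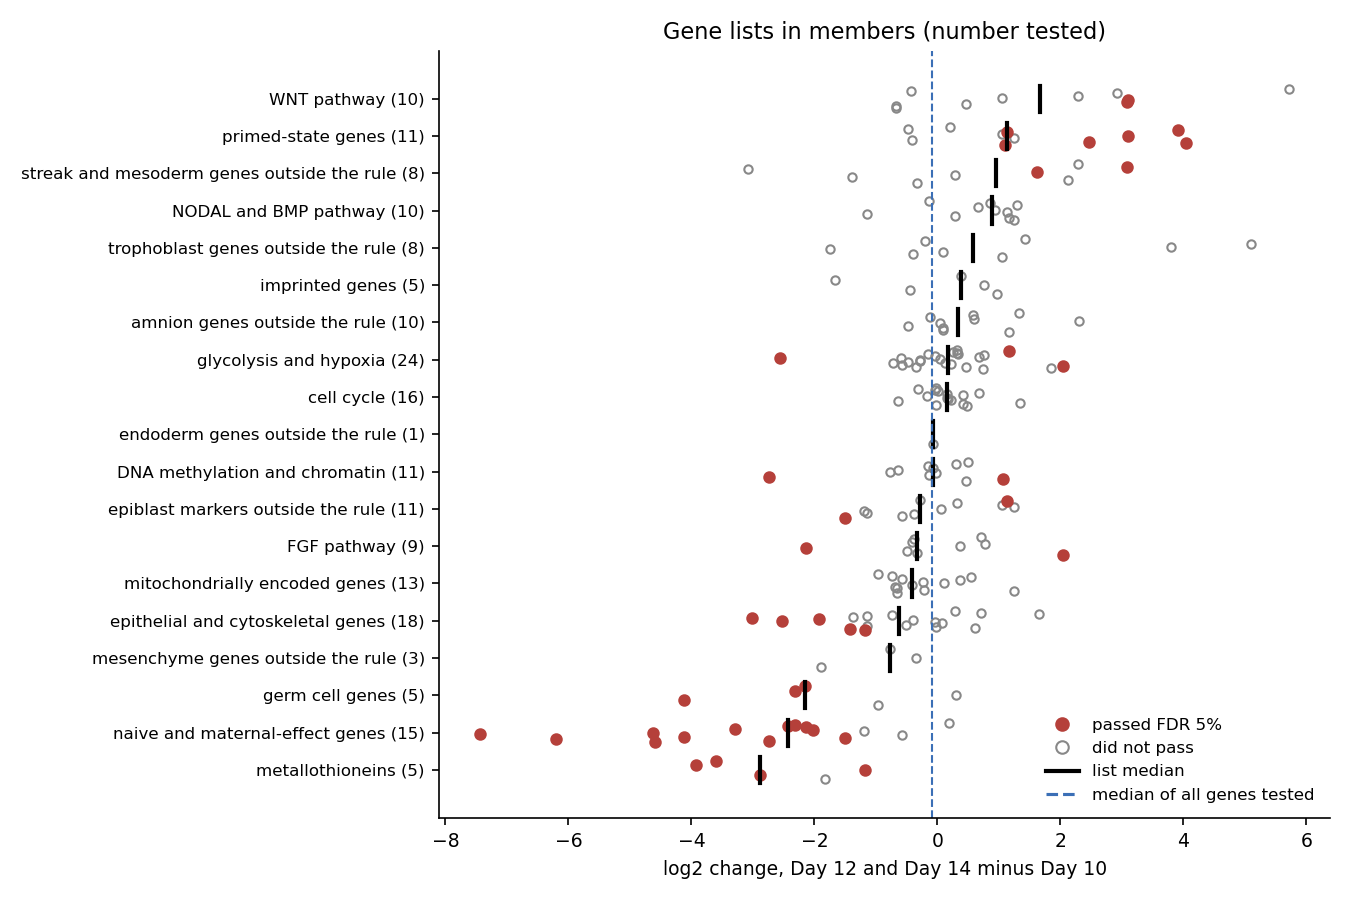
Fitted log2 change of each listed gene, mean of Day 12 and Day 14 minus Day 10, by list, with the number of genes tested in parentheses; filled red points passed a false discovery rate of 5%, black bars are list medians, and the dashed line is the median of all genes tested. Metallothioneins and the naive and maternal-effect genes lie furthest to the left, with medians of -2.88 and -2.43.

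Among the genes with a symbol, at least 20 CPM on the higher side and no overlap between libraries of the fit, those with the largest falls were, beside the ones already given and SNORD116-14, described below, FMO5, CD53, CAVIN2 and SMIM1. CD53, a tetraspanin, had 178 and 372 UMIs at Day 10 and 8 UMIs in the later libraries of the fit (adjusted p = 4.67e-06). CAVIN2, a coat protein of caveolae, had 63.2 and 68.8 CPM at Day 10, 48.6 CPM (11 UMIs) and 11.4 CPM at Day 12 and 0.729 and 0 CPM at Day 14 (log2 change -4.56, SE 0.34, adjusted p = 4.67e-06). SMIM1, a small membrane protein, had 80.8 and 75.2 CPM at Day 10 and 2.67 to 22.6 CPM later (adjusted p = 0.000110). FMO5, a monooxygenase, had 209 and 147 UMIs at Day 10 and 4 later (adjusted p = 0.000111).

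Under the same limits, the largest rises beside VCAN, SFRP1, CRABP2, DDIT4 and HAS2 were those of ITM2A, B3GAT2, SCG5, CLU and NREP. SCG5, a chaperone of the secretory pathway, had 6.79 and 5.53 CPM at Day 10, 48.6 and 20.0 CPM at Day 12 and 79.0 and 60.3 CPM at Day 14 (log2 change 2.59, SE 0.32, adjusted p = 0.000424). CLU, the clusterin gene, had 22.2 and 4.42 CPM at Day 10 and 40.2 to 88.5 CPM in the 3 later libraries of the fit (log2 change 2.35, SE 0.53, adjusted p = 0.0244). NREP had 10.5 and 12.0 CPM at Day 10, 17.7 CPM in Day 12 replicate 1 and 33.5 to 66.7 CPM in the 3 later libraries of the fit (log2 change 2.09, SE 0.32, adjusted p = 0.00196). ITM2A and B3GAT2 each rested mostly on a single library. ITM2A, a membrane protein, reached 58.8 CPM in Day 14 replicate 1 and 6.68 and 10.1 CPM in the other later libraries of the fit, and B3GAT2, a glucuronyltransferase, reached 107 CPM in Day 14 replicate 2 and 9.84 and 31.4 CPM in the others.

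SNORD116-14, a small nucleolar RNA of an imprinted cluster, passed with the largest log2 difference of the named genes (adjusted p = 0.0241), but was present in a single library. Day 10 replicate 1 had 1695 UMIs of it in 79 of 80 members (397 CPM), Day 10 replicate 2 had 2 UMIs, and the 4 later libraries had none. In the same library it was also found in 106 of 139 other epiblast-score cells (204 CPM), in 33 of 45 endoderm-score cells (42.1 CPM) and in 124 of 394 trophoblast-score cells (7.63 CPM). Its level set that library, which pooled 2 embryos, apart from all others, the other Day 10 library included.

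From Day 12 to Day 14 fewer genes passed. With 39 cells of 1 library on the Day 12 side, 42 of 10879 genes (0.386%) were called by edgeR, 4 higher (0.0368%) and 38 lower (0.349%), and with batch as a term 215 were called, 40 of the 42 among them, 0.34% of the genes tested higher and 1.64% lower. Without Day 14 replicate 1 no gene was called. Of the 15 naive and maternal-effect genes 4 fell, KHDC1L, OOEP, NLRP7 and BRDT, and 7 with batch as a term. In 11 of the 15 both Day 14 libraries lay below the Day 12 library of the fit (background 37%), and in 6 of the 11 primed-state genes both lay above it (background 28.7%). KHDC1L fell from 123 CPM in Day 12 replicate 2 to 5.59 and 3.35 CPM (log2 change -4.41, SE 0.40, adjusted p = 0.000173). OOEP fell from 378 CPM to 39.0 and 46.9 CPM (log2 change -3.12, SE 0.34, adjusted p = 0.000571), and NLRP7 from 151 CPM to 16 and 33.5 CPM (log2 change -2.86, SE 0.41, adjusted p = 0.00674). In the 2 members of Day 12 replicate 1, outside the fit, KHDC1L and OOEP were at 8.83 and 61.8 CPM, below the level of the other Day 12 library. Thinned to 10000 UMIs, the 14 members of that library, most of them not members at full depth, had 121 CPM of OOEP against 396 CPM in Day 12 replicate 2.

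Other named genes that fell over this step had been expressed at Day 10 as well. SPP1, the osteopontin gene, was highest in Day 12 replicate 2, with 438 CPM against 122 and 174 CPM at Day 10, 83.9 CPM in Day 12 replicate 1 and 30.5 and 73.7 CPM at Day 14 (log2 change -3.27, SE 0.41, adjusted p = 0.00188). LGALS1 fell further (log2 change -2.25, SE 0.40, adjusted p = 0.0322), and so did MT2A (log2 change -3.28, SE 0.58, adjusted p = 0.0322). TUBB6, a beta tubulin, had 263 and 302 CPM at Day 10, 159 and 157 CPM at Day 12 and 44.2 and 26.8 CPM at Day 14 (adjusted p = 0.0385). MAP1B, which binds microtubules, had 56.8 CPM in Day 12 replicate 2 and 13.7 and 10.1 CPM at Day 14 (adjusted p = 0.0406), and SLC18B1, a vesicular polyamine transporter, 26.1 CPM and 3.16 and 3.35 CPM (adjusted p = 0.0322). None of the 11 primed-state genes passed in this step, and 1 fell with batch as a term. That fit also called 3 of 10 NODAL and BMP, 2 of 24 glycolysis and hypoxia, 1 of 10 amnion and 1 of 5 imprinted genes higher at Day 14 (background 0.34%). Among these, ID1, ID3 and MSX2 rest on Day 14 replicate 2. P4HA2 had 200 UMIs in Day 14 replicate 1 and 1 in replicate 2, and a single cell of replicate 1 held 702 of 1510 UMIs of CDKN1C. The same fit called 5 of 5 metallothionein, 2 of 18 epithelial and cytoskeletal, 2 of 11 epiblast and 1 of 13 mitochondrial genes lower (background 1.64%).

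Set beside the other epiblast-score cells, the members differed by construction in the exit genes, and no test was made of that contrast. The other cells had 54.0 to 433 CPM of MIXL1 in 5 libraries and 5.25 CPM in Day 12 replicate 1, and 8.16 to 406 CPM of CDX2. They followed the members in KHDC1L, with 730 and 1300 CPM at Day 10 and 17 and 18.8 CPM at Day 14, and in CRABP2, with 34.1 and 25.4 CPM at Day 10 and 200.2 and 168 CPM at Day 14. SFRP1 was higher in the members than in them in each library, with 326 against 59.1 CPM in Day 14 replicate 1 and 16.9 against 2.75 CPM in Day 10 replicate 1. USP44 was likewise higher in the members in each library, with 54.5 to 165 CPM against 24.4 to 81.6 CPM. The day effects in the 2 groups of cells were not tested against each other.

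**Figure D5:**
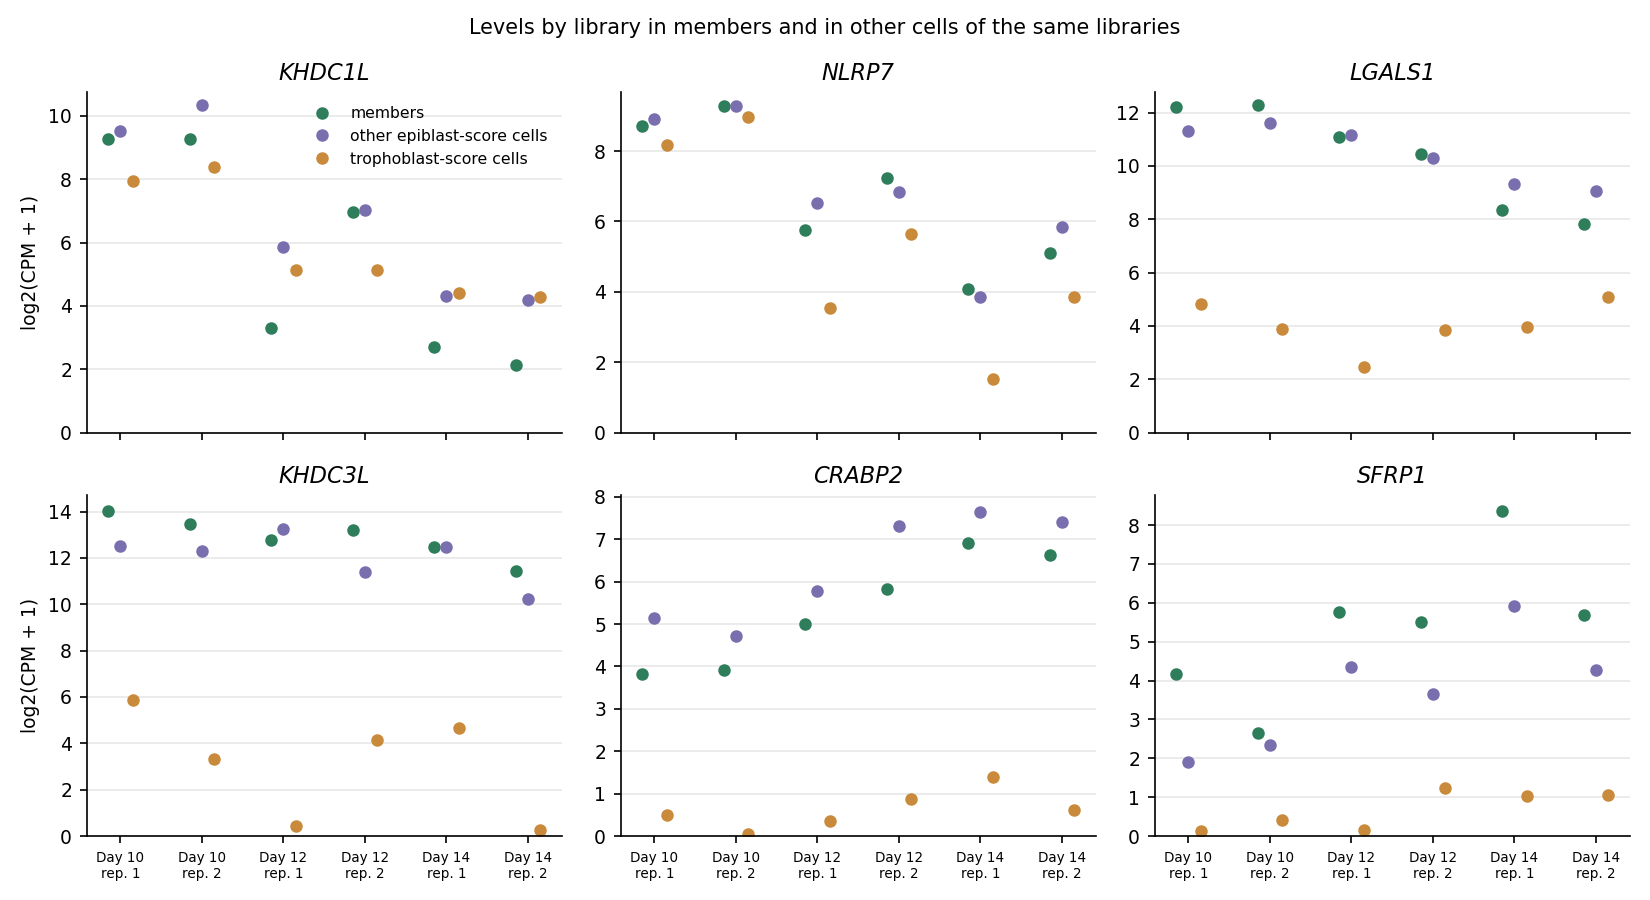
Level as log2(CPM + 1) of 6 genes by library in the members (green), the other epiblast-score cells (purple) and the trophoblast-score cells (orange) of the same libraries. KHDC1L and NLRP7 are lower on the later days in all these cells, LGALS1 and KHDC3L are low throughout in trophoblast-score cells, and SFRP1 in Day 14 replicate 1 is highest in the members, at 326 CPM.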

How the data were processed

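Members and gene lists were chosen with earlier results of these data known. Single-cell 3′ libraries (10x Genomics) of in vitro cultured wild-type embryos were used, and the 5 ISL1 mutant libraries were not used here. The authors counted UMIs with Cell Ranger 3.1.0 against the Ensembl annotation of Macaca_fascicularis_5.0, kept genes seen in several cells, filtered cells on mitochondrial share and gene number, and subtracted free RNA with SoupX. The deposited corrected values are expected counts, UMIs in whole numbers after that subtraction (19367 genes), and the deposited uncorrected values are raw counts. The correction removed 0.195% to 2.98% of the members' UMIs. The members' UMIs per library ranged from 226527 to 8229080. Genes are listed by Ensembl identifier, and 1018 of them have a symbol in the study's supplementary tables (118 of the 354 genes called). The gene lists draw on these alone, and calls were more frequent among them than among all genes tested. Backgrounds given beside list counts are over all genes tested and so are low for such genes. Listed genes without a symbol there, beyond those named above, were SOX11, CDH1, NANOS3, DNMT1, DNMT3A, TET1, UHRF1, KDM5B, LDHA, ALDOA, IGF2, PEG3 and PEG10. RefSeq served for gene neighbours only.

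The rule was applied per cell to ln(1 + 10000 × UMI/total). UMIs were summed over members per library, libraries with under 5 members were left out, and sums were compared with edgeR 4.0.16 in R 4.3.3 (TMM factors and filterByExpr), with day as the only term. Its two-sided quasi-likelihood test was adjusted by Benjamini-Hochberg to a false discovery rate of 5%. Libraries and not cells were the replicates, and embryos were pooled. The test also takes in counting error and a spread estimated over all genes, so small adjusted p-values rest in part on that shared estimate. The 5 libraries left 2 residual degrees of freedom. The batch term takes up 1 of these. On simulated counts the fit recovered 4.5%, 76% and 87.5% of genes changed by 1, 2 and 3 on the log2 scale in the first comparison. The simulation gave all genes the same spread and no shared shifts between libraries of a day. Such shifts are present in the data, so recovery there may be lower.

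The labels give batches B1 and B2, which pair libraries across days. The deviations of same-numbered libraries of Day 10 and Day 14 from their day means had a correlation of 0.118 over 4523 genes. With 2 libraries per day the deviations mirror each other (correlation -1), so this is a single value. It cannot decide whether same-numbered libraries share a batch effect, and Day 12 was not included. No doublet caller was run, and no member barcode occurred in another wild-type library. Alternatives were RLE factors, DESeq2 1.42.0, no low-count filter, a false discovery rate of 1%, uncorrected counts, the batch term, both NANOG and UTF1 required, cells thinned to 10000 UMIs, members over 2 times the median UMIs left out, each library left out in turn and, chosen after seeing the data, at least 10 CPM in 2 libraries with 30 UMIs in all.

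Named genes are those the rule reads and the markers, the 2 to 4 of a list with the smallest p and listed genes the study names, and up to 10 per direction and comparison with the largest log2 change among genes called that have a symbol other than a LOC number, at least 20 CPM on the higher side and no overlap between libraries. TERF1, LIN28A, FGF4, SFRP2, GDF3 and the genes of the closing section were named after their values were seen.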

Additional observations from a re-analysis of the deposited data

How the results depend on the processing

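From Day 10 to the later days, 326 genes were called with RLE factors, 348 with uncorrected counts, 304 with both NANOG and UTF1 required and 374 without members of over 2 times the median UMIs, against 354. DESeq2 called 126, no low-count filter 695, a false discovery rate of 1% 116, thinned cells 118 (6373 genes tested), the batch term 802, and the stricter count filter 101. Leaving out single libraries gave 48 to 478 genes, the lowest without Day 14 replicate 1. From Day 12 to Day 14, against 42, DESeq2 called 19, no filter 302, 1% 8, both genes required 11, thinned cells 3, the batch term 215 and the stricter filter 2, and leaving out single libraries gave 0 to 222. Day 12 replicate 1 is in no fit but the thinned one, and without Day 12 replicate 2 the second comparison could not be made.

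The 12 naive and maternal-effect genes that fell from Day 10 were 7 to 12 on leaving out single libraries. In the second comparison, against 4, there were 2 with the stricter filter or thinned cells, 7 with no filter or with the batch term, and 0 to 7 on leaving out single libraries. Primed genes, 6 in the main test, were 3 with DESeq2, 2 at 1% or with the stricter filter, and 1 to 6 on leaving out single libraries. Metallothioneins, 4, were 2 with DESeq2, at 1% or with the stricter filter, and 1 to 4 on leaving out single libraries. Epithelial and cytoskeletal genes, 5, were 3 at 1% or with the stricter filter, 8 with no filter, with the batch term or without members of over 2 times the median UMIs, and 3 to 5 on leaving out single libraries. Germ cell genes, 3, were 0 to 3 on leaving out single libraries. With the lone library left on a side, its spread is assumed to equal that of the others.

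Of 755 values of 51 named genes in the first comparison, 631 kept direction and call, 112 lost the call, 8 gained it and 4 reversed, all 4 for TRIML2, which passed in none. Its log2 change was -0.11 with thinned cells and -0.14, -0.80 and -0.15 without Day 10 replicate 2, Day 12 replicate 2 and Day 14 replicate 2, and leaving out single libraries gave -0.80 to 0.68. In the second, 90 of 126 values kept both and 36 lost the call. The batch term (replicate block) removed 2 of the 42 calls of the second comparison and none of the first. The causes of these differences were not tested.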

Other observations

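The 2 Day 14 libraries stood apart from each other, each in a different set of genes, which fold changes over days cannot show. In Day 14 replicate 2, with 12 members and 298501 UMIs, several genes that BMP signals induce were high. ID1, an inhibitor of differentiation that BMP induces, had 2322 CPM there and 232 to 366 CPM in the other 5 libraries, and all 12 members had a UMI of it, with 7.33 to 44.5 per 10000 UMIs. ID3 had 982 CPM against 98.2 to 138 CPM, ID2 127 CPM against 0 to 21.4 CPM, and BAMBI, a decoy receptor of the pathway, 224 CPM against 25.8 to 94.1 CPM. MSX2, a homeobox gene of the amnion list, had 107 CPM against 0 to 11.2 CPM. Other genes of the NODAL and BMP list were not highest there, with GDF3 at 13.4 CPM, FOXH1 at 164 CPM, PMEPA1 at 20.1 CPM and TWSG1 at 0. Of 10 NODAL and BMP genes 6 were highest in this library of the fit, and of 10 amnion genes 7 (198 CPM in sum against 50.6 to 68.8 CPM), against 26.9% of all genes tested, but several of these rest on 1 to 3 UMIs, and 1 UMI is 3.35 CPM there. The other epiblast-score cells of that library had 2161 CPM of ID1, against 267 to 945 CPM in the other libraries, and its trophoblast-score cells had 53.6 CPM, within the 7.90 to 96.5 CPM of those cells in the other libraries. ID1 did not pass in the main test (adjusted p = 0.276 for the later days against Day 10 and 0.237 for Day 14 against Day 12, edgeR). With batch as a term, Day 14 against Day 12 passed for ID1 (log2 change 2.46, adjusted p = 9.56e-08), ID3 (2.71, 2.49e-09), BAMBI (1.77, 0.00185) and MSX2 (2.93, 0.00163), and not for ID2 (1.63, 0.0606). In the fit without batch the log2 change without Day 14 replicate 2 was 0.40 for ID1, 0.44 for ID3 and 0.19 for MSX2, so these rest on that library, and Day 14 replicate 1 had 366 CPM of ID1 against 300.1 CPM in Day 12 replicate 2.

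In Day 14 replicate 1, with 170 members, the genes of glycolysis and hypoxia were high and those encoded by mitochondria low. Of 24 glycolysis and hypoxia genes 18 were highest there (background 16.9%), with a summed level of 19113 CPM against 10201 to 13751 CPM in the other 4 libraries of the fit. TPI1, a glycolytic enzyme, had 1275 CPM against 232 to 614 CPM in the other libraries, and every member had a UMI of it. All 13 mitochondrial genes were lowest there (background 20.1%), at 33928 CPM in sum against 56819 to 86401 CPM. Trophoblast-score cells of the same library also had all 13 lowest (33.5% of all genes tested), at 25688 CPM in sum, and 14 of 24 glycolysis and hypoxia genes highest (20.2% of all), so the same was seen in those cells, and the other cells of the library were not examined for it. The 2 libraries come from different batches and embryos, which cannot be told apart here, and these genes were picked after their values were seen.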
